A study of Mus musculus with 12 samples.

Results

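The comparison described here asks whether the difference between CCR2low and CCR2hi cells of the infarcted mouse heart depended on the Bhlhe41 genotype. For each gene, the gate difference is the log2 ratio of CCR2low to CCR2hi expression, and the interaction is the gate difference in Bhlhe41Cre mice minus that in wild-type (WT) mice. The members are autosomal genes that passed the interaction test (called, adjusted p under 0.05) and whose gate difference appeared (called in Bhlhe41Cre and not in WT), vanished (called in WT and not in Bhlhe41Cre) or turned (called in both with opposite sign). They numbered 1180 of the 14452 autosomal genes tested and of 53801 genes in the count table: 427 appeared, 592 vanished and 161 turned. In all, 1884 of 14964 genes tested were called in the interaction, which is 12.6% (4.74% higher and 7.85% lower), and 1822 of these were autosomal. The gate difference by itself was called in 59.8% of genes in WT (29.8% higher in CCR2low, 30.0% lower) and in 54.1% in Bhlhe41Cre (24.9% and 29.1%). The other autosomal calls kept 1 sign in both genotypes, with the gate difference narrower in Bhlhe41Cre for 422 genes and wider for 213, and 7 had no called gate difference in either genotype.

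Bulk RNA was sequenced from cells that the labels call macrophages, sorted from hearts of male C57BL/6N mice after ligation of the left anterior descending coronary artery to cause myocardial infarction (MI). The 4 groups of 3 libraries were WT CCR2low, WT CCR2hi, Bhlhe41dTomato-Cre+/- CCR2low and Bhlhe41dTomato-Cre+/- CCR2hi, the last pair being called Bhlhe41Cre here (per-library values are given in the order of replicates 1, 2 and 3, and positions on GRCm38). All groups had MI, and the Bhlhe41Cre mice had the dTomato-Cre allele of Bhlhe41 on 1 chromosome. No source used here states the time after MI, the age of the mice, the sort markers other than CCR2 or how many animals went into a library, so p-values measure the spread between these libraries, which may be technical.

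CCR2 is the receptor through which the chemokine CCL2 draws monocytes out of the blood, and its level on the cell surface separates recruited from long-lived macrophages in the heart. BHLHE41 and its paralog BHLHE40 are basic helix-loop-helix repressors that bind the E-box CACGTG, act in the feedback loop of the circadian clock and regulate macrophage and lymphocyte genes. A gene enters the interaction when the genotype shifts the CCR2low and CCR2hi cells by different amounts, so each member was read in all 4 groups.

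Levels are given as CPM, counts scaled to each library's adjusted total. The libraries held 17.7 to 20.83 M counts (median 19.29 M). The 20 macrophage identity genes, among them Adgre1, Cd68, Csf1r and C1qa, took 3.51% to 3.82% of counts in the CCR2low libraries of WT and 3.13% to 3.48% in those of Bhlhe41Cre, but 0.259% to 0.597% in the CCR2hi libraries of WT and 0.877% to 1.15% in those of Bhlhe41Cre. The 18 fibroblast markers took 0.298% to 0.968% of counts in the CCR2low libraries of both genotypes, 8.22% to 9.12% in WT CCR2hi and 4.53% to 5.71% in Bhlhe41Cre CCR2hi, with no marker of either list at 0 in any group. The libraries labelled CCR2hi macrophages thus held a smaller share of macrophage RNA than the CCR2low ones, by an amount that differed between genotypes. In bulk samples, fewer cells of a type and less RNA per cell cannot be told apart. Xist was counted 1403 to 3699 times in each Bhlhe41Cre library and at most 3 times in each WT library although all samples are labelled male, and sex and genotype cannot be told apart here. For the Bhlhe41Cre samples this word stands under genotype, a wrong field, and their genotype and gate are given by the title alone, so whether every library carries the right label cannot be told from these files. Y-linked genes (Ddx3y, Eif2s3y, Kdm5d and Uty together) gave 668 to 1741 counts in the WT libraries. In Bhlhe41Cre they gave 709 to 1446 in the libraries of replicates 1 and 2, and 105 and 182 in those of replicate 3. Replicates 1 and 2 of Bhlhe41Cre thus held both Xist and Y-linked counts, and the Y-linked level also differed within that genotype. What part these differences have in the results below was not tested.

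**Figure D1:**
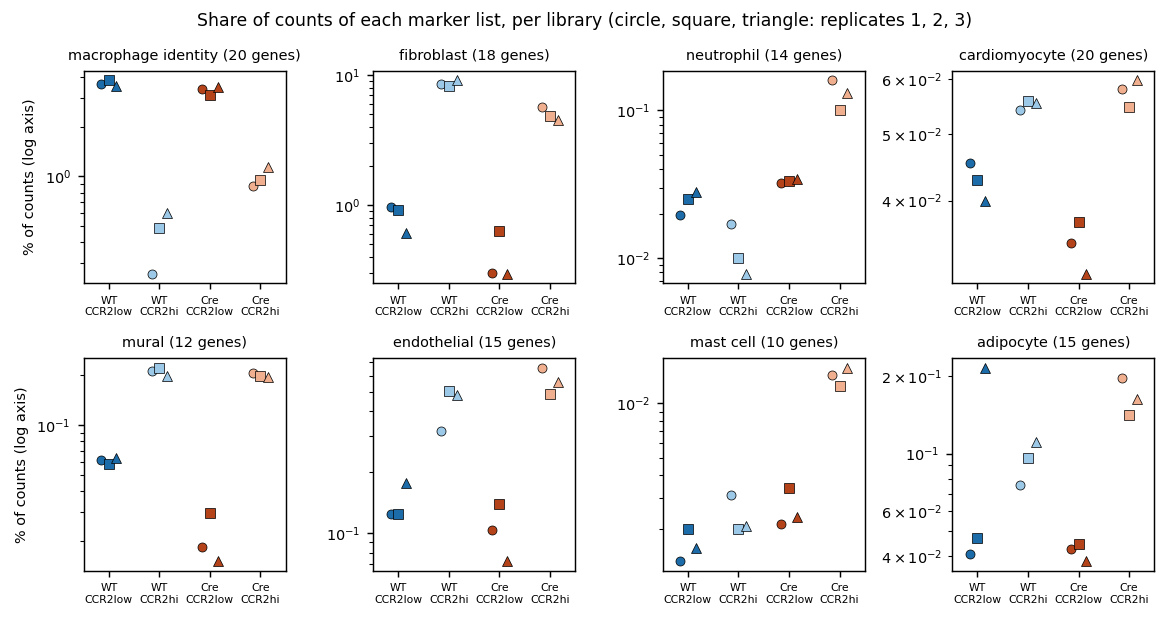
Share of all counts (percent, log axis) taken by 8 marker lists in each of the 12 libraries, with 1 point per library and marker shape for the replicate number (Cre stands for Bhlhe41Cre). The macrophage list is at 3.13% to 3.82% in the CCR2low libraries and at 0.259% to 1.15% in the CCR2hi libraries, and the fibroblast list runs the other way.

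The scale on which libraries are compared matters for every count that follows. On the main scale (TMM, a trimmed mean that assumes most genes equal) the median autosomal gene had an interaction of -0.18, and 673 autosomal genes were called higher (4.66%) and 1149 lower (7.95%). With another library as the TMM reference the median was 0.03, and 1252 genes were called higher and 686 lower over all chromosomes, against 710 and 1174 on the main scale. When the macrophage identity genes set the scale, the median was 1.14 and 6340 genes were called higher and 111 lower. Over autosomal genes alone these were 42.1% called higher and 0.761% lower. With the fibroblast markers setting it, 270 were called higher and 302 lower (1.8% and 2.08% of autosomal genes). No gene called on the main scale was called in the opposite direction in any of the 26 alternatives. The turn of a gate difference moved with the scale, since 161 genes turned on the main scale, 270 with the other TMM reference, 9 relative to the macrophage identity genes and 5 relative to the fibroblast markers. With the replicate number within genotype as a block, 256 turned.

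**Figure D2:**
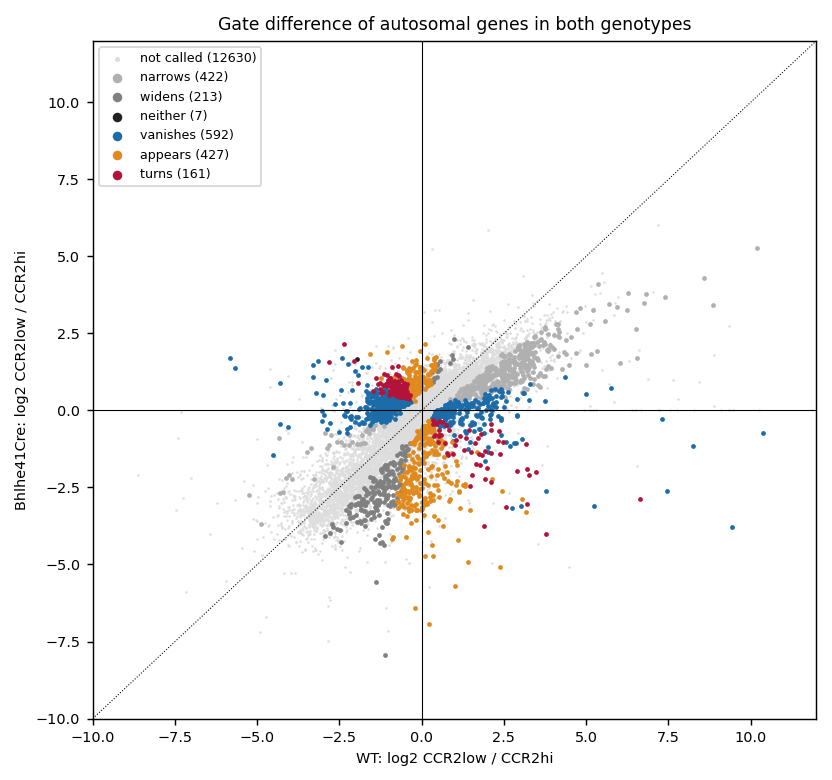
Gate difference (log2 CCR2low over CCR2hi) in WT on the horizontal axis and in Bhlhe41Cre on the vertical axis, with 1 point per autosomal gene tested and colour for its class. The 161 turning genes lie in the upper left and lower right quadrants, the 592 vanishing genes near the horizontal zero line and the 427 appearing genes near the vertical one.

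The members split into 6 sets by class and by the sign of the interaction, and the sets differed in which group of libraries stood apart. In the 104 genes that turned with a higher interaction, the median gate difference was -0.78 in WT and 0.75 in Bhlhe41Cre, and the genotypes differed by 1.33 in CCR2low and by -0.20 in CCR2hi. In the 57 that turned with a lower interaction, the gate medians were 1.53 in WT and -1.07 in Bhlhe41Cre, with genotype differences of -0.96 in CCR2low and 1.51 in CCR2hi. These medians describe genes chosen by the same contrasts and carry no test. On the main scale the first set thus differed between genotypes mainly in CCR2low cells, and the second moved in both gates in opposite directions. Which gate differs can depend on the scale. The macrophage identity genes took a mean of 3.65% and 3.32% of counts in WT and Bhlhe41Cre CCR2low, and 0.449% and 0.99% in CCR2hi. In the first set the median log2 distance from the gene means was -0.78, -0.80 and -0.38 in the WT CCR2low libraries. It was 0.85, 0.84 and 0.09 in those of Bhlhe41Cre CCR2low.

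Vanishing genes fell into 348 that were lower in WT CCR2low than WT CCR2hi (median gate difference -1.11, and 0.23 in Bhlhe41Cre) and 244 that were higher there (1.10, and -0.09 in Bhlhe41Cre). For the first set the median genotype difference was 1.11 in CCR2low and -0.26 in CCR2hi, and for the second it was -0.49 and 0.71. Appearing genes fell into 163 with a higher interaction (gate medians -0.23 in WT and 0.90 in Bhlhe41Cre) and 264 with a lower one (0.04 and -2.05). Their genotype medians were 1.00 in CCR2low and -0.12 in CCR2hi for the first set, and -1.32 and 0.45 for the second. At the threshold itself, Sod2 was the last gene inside (adjusted p = 0.04995) and Agtrap the first outside (adjusted p = 0.0501), and Sod2 narrowed rather than joining the members.

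**Figure D3:**
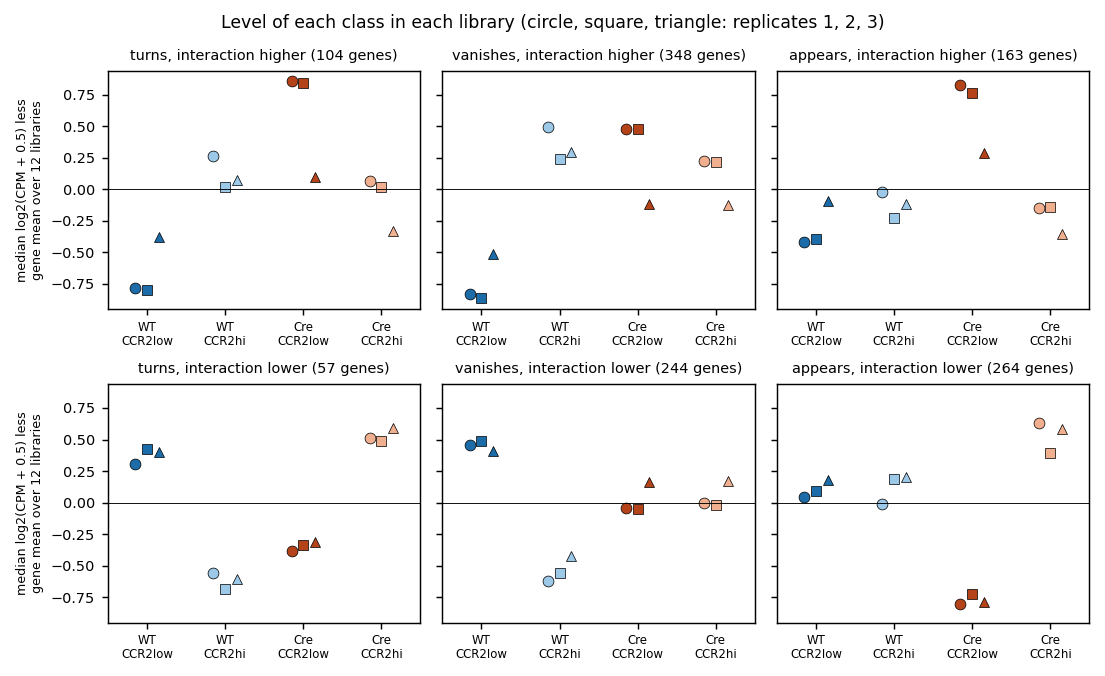
Level of each of the 6 sets in every library, as the median over its genes of log2(CPM + 0.5) less the gene's own mean over the 12 libraries (Cre stands for Bhlhe41Cre). For the 104 turning genes with a higher interaction, Bhlhe41Cre CCR2low replicates 1 and 2 lie at 0.85 and 0.84 and replicate 3 at 0.09, while for the 57 with a lower one the 3 replicates lie between -0.39 and -0.31.

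The sets with a higher interaction had longer transcripts. The longest annotated transcript had a median length of 7450 bases in the 104 turning genes, 5850 in the 348 vanishing genes and 6009 in the 163 appearing genes, against 3269 over all autosomal genes tested. The sets with a lower interaction had medians of 2427, 2409 and 2641 bases. Over all autosomal genes the median gate difference in WT ran from 0.34 for transcripts under 1 kb to -0.77 for those of 10 kb or more, whereas in Bhlhe41Cre it ran from -0.07 to 0.19. Interaction calls in the higher direction covered 0.234% of the shortest genes and 29.8% of the longest, and lower calls 10.5% and 2.08%.

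The same pattern showed in the libraries. The 1950 autosomal genes tested with a transcript of 6 kb or more took 7.83% to 9.39% of counts in WT CCR2low, 12% to 14.3% in WT CCR2hi and 9.65% to 11.2% in Bhlhe41Cre CCR2hi. In Bhlhe41Cre CCR2low they took 10.4% and 10.9% in replicates 1 and 2 but 7.93% in replicate 3, which lay among the WT CCR2low libraries. A correction for GC content and transcript length, chosen after seeing the data, brought the medians of the length bins to between -0.16 and -0.07. After it, 76 of the 104 turning, 168 of the 348 vanishing and 66 of the 163 appearing genes with a higher interaction were still called, and 55 of 57, 142 of 244 and 183 of 264 with a lower one.

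**Figure D4:**
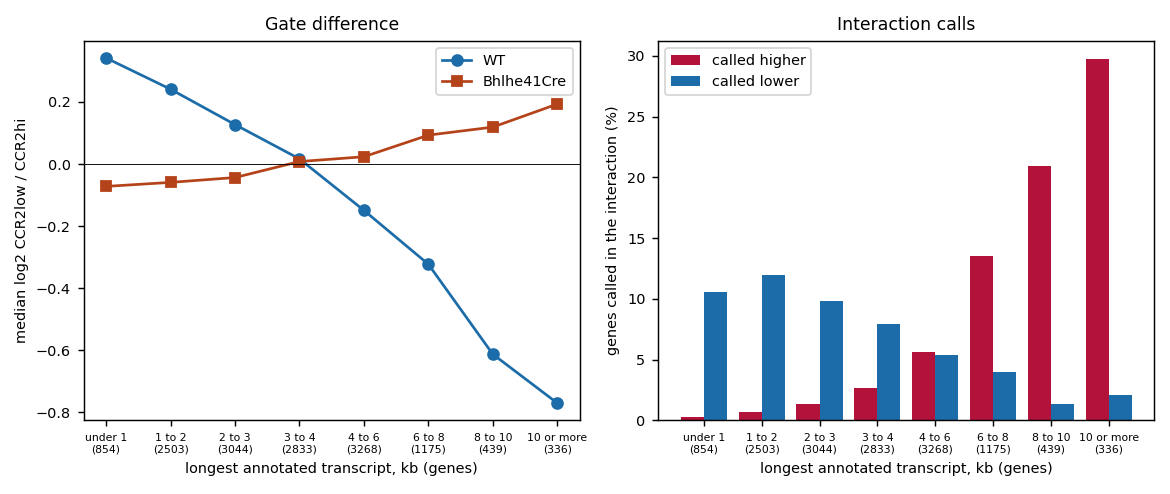
Left, median gate difference (log2) of autosomal genes by length of the longest annotated transcript in WT and Bhlhe41Cre. Right, percent of the genes in each length bin called higher or lower in the interaction, which for higher calls goes from 0.234% under 1 kb to 29.8% at 10 kb or more.

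Without Bhlhe41Cre CCR2low replicate 3, 2801 genes were called in the interaction (1738 higher) and 442 turned, against 871 (277 higher) and 67 without replicate 1 of that group. The number that turned was also moved beyond 1.5-fold without Bhlhe41Cre CCR2hi replicate 3 (96), Bhlhe41Cre CCR2low replicate 2 (88) and WT CCR2low replicate 2 (90). The genes given with values below passed the interaction test in every fit that left out 1 library, which is part of the rule that chose them, apart from Bhlhe41, Bhlhe40 and Ccr2. In limma on log2(TPM + 1) the interactions of Prpf39, Rictor, Cep350, Ercc6, Ago3, Usp34, 4932438A13Rik, Mga, Cyp26b1, Lmod1, Eno2 and Bhlhe41 did not pass the test. Relative to the fibroblast markers those of Cd14, Tyrobp, Tnf, Clec7a, Plaur, Tagln, Des, Ier3, Sesn2, Nr4a1, Btg2, Nfkbia, Hsp90b1 and Bhlhe40 did not.

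The 104 genes that turned with a higher interaction had interactions of up to 4.53, and the 8 that met the naming rule reached 2.83. Nfat5 (chr8:107293470-107379517), the transcription factor of the response to osmotic stress, stood at 16.1, 19.1 and 24.6 CPM in the CCR2low and 84.2, 78.8 and 67.3 in the CCR2hi libraries of WT, and at 150.4, 139 and 53.6 in the CCR2low and 73.9, 67.5 and 44.2 in the CCR2hi libraries of Bhlhe41Cre. Its WT CCR2low libraries were the lowest of the 12, and in Bhlhe41Cre only replicates 1 and 2 of CCR2low lay above the CCR2hi libraries. The gate difference was -1.95 ± 0.32 in WT and 0.89 ± 0.31 in Bhlhe41Cre, which gave an interaction of 2.83 ± 0.45 (edgeR adjusted p = 0.00264), and 1.82 after the length correction.

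Ahnak (chr19:8989284-9076914), which encodes a giant scaffold protein under the plasma membrane, was at 336, 333 and 601 CPM in the CCR2low and 937, 897 and 568 in the CCR2hi libraries of WT, and at 1791, 1800.0 and 786 in the CCR2low and 644, 579 and 414 in the CCR2hi libraries of Bhlhe41Cre. Bhlhe41Cre CCR2low was above Bhlhe41Cre CCR2hi in all 3 libraries, and WT CCR2low replicate 3 overlapped WT CCR2hi. Its gate difference went from -0.92 ± 0.33 to 1.42 ± 0.33 (interaction 2.34 ± 0.46, edgeR adjusted p = 0.0078, and 1.54 after the length correction). Mki67 (chr7:135689784-135716361), the antigen of proliferating cells, was at 18.7, 23 and 23.9 CPM in the CCR2low and 47.6, 26.7 and 32.8 in the CCR2hi libraries of WT, and at 103, 107 and 67.8 in the CCR2low and 30.6, 42.4 and 30.2 in the CCR2hi libraries of Bhlhe41Cre. Here all Bhlhe41Cre CCR2low libraries were the highest of the 12, and the WT gates did not overlap. Its interaction was 2.14 ± 0.33 (edgeR adjusted p = 0.00212), with gate differences of -0.71 ± 0.23 in WT and 1.43 ± 0.23 in Bhlhe41Cre. The length correction left the interaction of Mki67 at 1.54. The cell cycle list as a whole did not share this direction. Of its 38 genes 3 were called higher and 1 lower, beside 4.66% and 7.95% of all autosomal genes. The median of that list was -0.47, against -0.18 for all autosomal genes.

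Rictor (chr15:6708379-6800401), the defining subunit of the kinase complex mTORC2, was at 4.42, 4.73 and 8.77 CPM in the CCR2low and 17.5, 13.7 and 13.5 in the CCR2hi libraries of WT, and at 34.7, 30.9 and 12.3 in the CCR2low and 17, 14.2 and 11.7 in the CCR2hi libraries of Bhlhe41Cre. Smg1 (chr7:118131308-118243670), a kinase of nonsense-mediated RNA decay, was at 19.5, 20.0 and 37.2 CPM in the CCR2low and 58.2, 63.4 and 47.2 in the CCR2hi libraries of WT, and at 99, 104 and 34.3 in the CCR2low and 40.2, 38.9 and 26.4 in the CCR2hi libraries of Bhlhe41Cre. For both genes Bhlhe41Cre CCR2low replicate 3 lay below the WT CCR2hi libraries while replicates 1 and 2 were the highest of the 12. Their interactions were 2.18 ± 0.48 (edgeR adjusted p = 0.0132) and 2.31 ± 0.51 (edgeR adjusted p = 0.0125), and 1.33 and 1.38 after the length correction. Prpf39, a splicing factor, Bod1l, which protects replication forks, and the gene 2810474O19Rik had interactions of 2.45 ± 0.55, 2.14 ± 0.34 and 2.20 ± 0.39. The group with the highest mean was Bhlhe41Cre CCR2low for Prpf39 and 2810474O19Rik and WT CCR2hi for Bod1l. All 8 were called in the interaction on the main scale, but the turn itself was kept in only 10 of the 26 alternatives for Rictor, 15 for Nfat5, Smg1 and Prpf39 and 17 for Ahnak, and in 21 to 23 for Mki67, Bod1l and 2810474O19Rik.

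Among the genes that turned with a lower interaction was Fpr1 (chr17:17876471-17883940), the receptor for formylated bacterial and mitochondrial peptides, at 8.95, 12.1 and 9.84 CPM in the CCR2low and 1.73, 1.05 and 0.611 in the CCR2hi libraries of WT, and at 12.6, 10.1 and 7.82 in the CCR2low and 28.9, 14.8 and 21.4 in the CCR2hi libraries of Bhlhe41Cre. The 3 WT CCR2hi libraries were below all others and the 3 Bhlhe41Cre CCR2hi libraries above all others, with both CCR2low groups between them and overlapping. The gate difference was 3.18 ± 0.35 in WT and -1.09 ± 0.29 in Bhlhe41Cre, and the interaction -4.26 ± 0.45 (edgeR adjusted p = 0.000307).

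Hcar2 (chr5:123863570-123865499), the receptor for niacin and beta-hydroxybutyrate, was at 13.7, 15 and 18.4 CPM in the CCR2low and 8.43, 4.15 and 3.72 in the CCR2hi libraries of WT, and at 22.1, 35.1 and 31 in the CCR2low and 83.6, 118 and 172 in the CCR2hi libraries of Bhlhe41Cre. The groups did not overlap, and the genotypes differed by 4.51 ± 0.35 in CCR2hi (edgeR adjusted p = 2.16e-06) and by 0.90 ± 0.30 in CCR2low (edgeR adjusted p = 0.0286). Of all genes tested, 32.1% were called between genotypes in CCR2hi and 43.0% in CCR2low. Its interaction was -3.61 ± 0.44 (edgeR adjusted p = 0.000808).

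**Figure D5:**
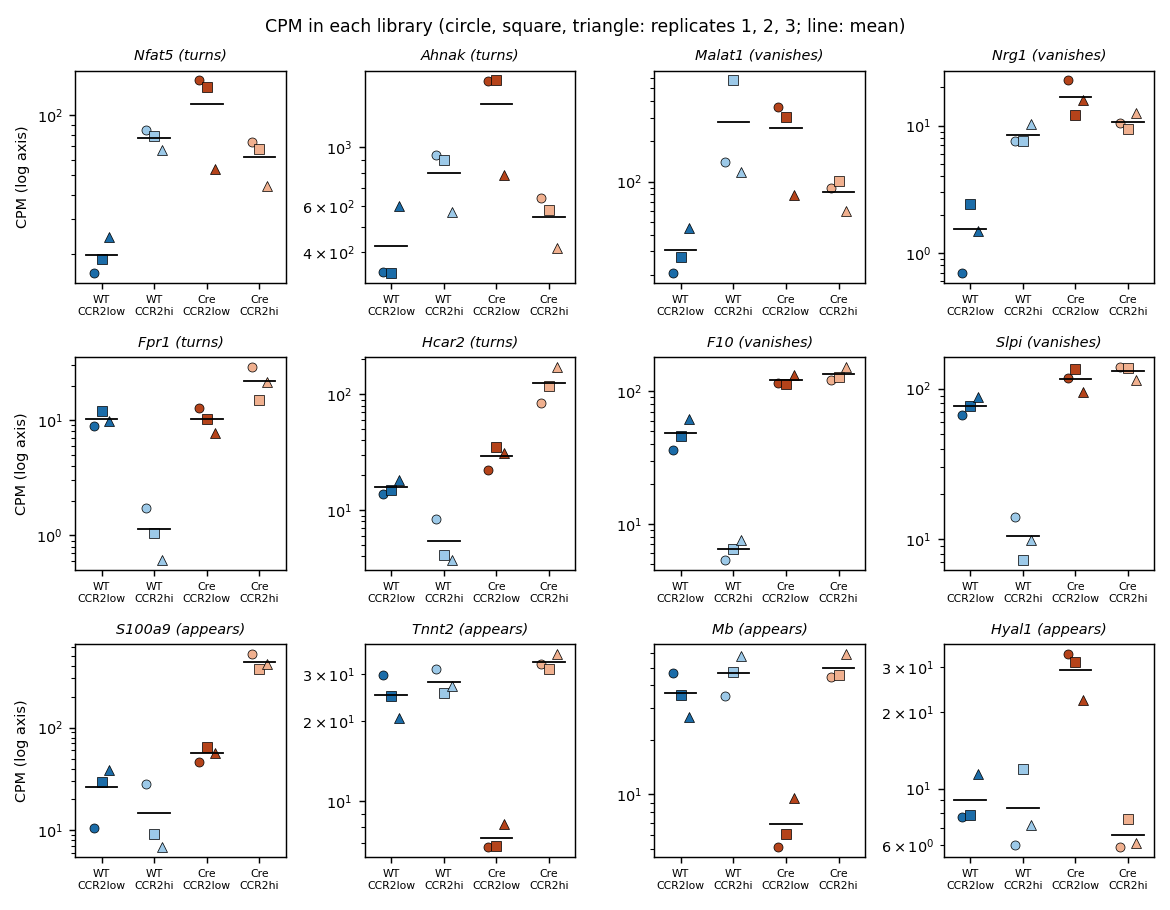
CPM (log axis) of 12 named members in each library, with circles, squares and triangles for replicates 1, 2 and 3 and a line at the mean (Cre stands for Bhlhe41Cre). In Nfat5, Ahnak and Malat1 the triangle of Bhlhe41Cre CCR2low lies below the other replicates of its group, and in Fpr1, F10 and Slpi the WT CCR2hi libraries lie below all others.

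Trem1 (chr17:48232768-48246924), an amplifier of inflammatory signalling, was at 90.0, 118 and 108 CPM in the CCR2low and 26.7, 23.7 and 23.5 in the CCR2hi libraries of WT, and at 72.7, 81.3 and 103 in the CCR2low and 101, 105 and 145 in the CCR2hi libraries of Bhlhe41Cre. The WT CCR2hi libraries were below the 9 other libraries, and in Bhlhe41Cre the gates overlapped. Trem1 had an interaction of -2.55 ± 0.24 (edgeR adjusted p = 0.000201), and its turn in Bhlhe41Cre rested on a gate difference of -0.45 ± 0.17 (edgeR adjusted p = 0.0375). On the scale of the macrophage identity genes its interaction was -1.17 (edgeR adjusted p = 0.0505).

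Lcn2 (chr2:32384633-32388252), the siderophore-binding lipocalin of neutrophils and stressed epithelia, was at 5.75, 19.4 and 31.4 CPM in the CCR2low and 5.67, 4.94 and 4.18 in the CCR2hi libraries of WT, and at 17.1, 11.7 and 9.35 in the CCR2low and 99, 40.7 and 38.7 in the CCR2hi libraries of Bhlhe41Cre. Itih4 (chr14:30886476-30902353), an acute phase plasma protein, was at 8.73, 13.4 and 52 CPM in the CCR2low and 6.61, 5.51 and 5.09 in the CCR2hi libraries of WT, and at 2.73, 4.42 and 1.23 in the CCR2low and 20.0, 10.2 and 12.4 in the CCR2hi libraries of Bhlhe41Cre. In both, WT CCR2low was spread widely and its replicate 1 lay nearest to WT CCR2hi, while the Bhlhe41Cre gates did not overlap. Their interactions were -4.16 ± 0.73 (edgeR adjusted p = 0.00499) and -4.44 ± 0.84 (edgeR adjusted p = 0.00704). Ifitm6, Lrg1 and Gm12250 had interactions of -3.29 ± 0.54, -3.01 ± 0.37 and -3.14 ± 0.46. The turn of Lrg1, with a gate difference of -0.65 ± 0.26 in Bhlhe41Cre (edgeR adjusted p = 0.0466), was kept in 7 of the 26 alternatives. It was kept in 15 for Ifitm6, 16 for Trem1, 13 for Ier3 and 17 for Sesn2, and in 21 to 24 for Itih4, Lcn2, Fpr1, Hcar2 and Gm12250. The early response gene Ier3 and the stress-induced Sesn2, named from their lists, turned by smaller amounts (-1.18 ± 0.18 and -1.14 ± 0.20), and relative to the macrophage identity genes their interactions were 0.12 (edgeR adjusted p = 0.819) and 0.15 (edgeR adjusted p = 0.78).

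Among the vanishing genes with the higher level in WT CCR2low was F10 (chr8:13037308-13056676), coagulation factor X made by monocytes, at 35.8, 46.3 and 62.2 CPM in the CCR2low and 5.32, 6.41 and 7.49 in the CCR2hi libraries of WT, and at 116, 114 and 133 in the CCR2low and 123, 128 and 152 in the CCR2hi libraries of Bhlhe41Cre. Slpi (chr2:164354070-164389095), an inhibitor of neutrophil elastase, was at 67.1, 76.1 and 87.5 CPM in the CCR2low and 14, 7.25 and 9.88 in the CCR2hi libraries of WT, and at 118, 135 and 94.8 in the CCR2low and 139, 138 and 114 in the CCR2hi libraries of Bhlhe41Cre. WT CCR2hi was the lowest group for both genes without overlap, and in Bhlhe41Cre the gates overlapped. F10 had gate differences of 2.91 ± 0.20 in WT and -0.15 ± 0.18 in Bhlhe41Cre (interaction -3.06 ± 0.27, edgeR adjusted p = 0.000154), and Slpi 2.89 ± 0.22 and -0.17 ± 0.20 (interaction -3.05 ± 0.30, edgeR adjusted p = 0.000201).

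Dusp2 (chr2:127336159-127338376), a nuclear phosphatase that switches off MAP kinases, was at 90.6, 97.9 and 78.7 CPM in the CCR2low and 18.8, 19.4 and 25.7 in the CCR2hi libraries of WT, and at 48, 43.4 and 48.3 in the CCR2low and 43.3, 39.5 and 52.2 in the CCR2hi libraries of Bhlhe41Cre. For this gene WT CCR2low was the highest group, and both Bhlhe41Cre gates overlapped at an intermediate level. The genotypes differed by -0.94 ± 0.15 in CCR2low (edgeR adjusted p = 0.000425) and by 1.08 ± 0.15 in CCR2hi (edgeR adjusted p = 0.000224). Csf3r (chr4:126024550-126044440), the G-CSF receptor, was at 110.0, 114 and 101 CPM in the CCR2low and 22.9, 23.4 and 21 in the CCR2hi libraries of WT, and at 77.5, 77.5 and 105 in the CCR2low and 58.7, 68.5 and 112 in the CCR2hi libraries of Bhlhe41Cre, with only WT CCR2hi apart from the other groups. The interactions were -2.01 ± 0.22 (edgeR adjusted p = 0.000341) and -2.15 ± 0.29 (edgeR adjusted p = 0.00108).

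Cd24a, a leukocyte surface glycoprotein, Gpr84, a receptor for medium-chain fatty acids, and Itgal, the alpha chain of the integrin LFA-1, had interactions of -2.38 ± 0.45, -2.36 ± 0.39 and -2.09 ± 0.38. Relative to the macrophage identity genes these 3, Csf3r and Dusp2 did not pass the test, while F10 (-1.81) and Slpi (-1.62) did. The predicted gene Gm28048 was at 10.6, 4.43 and 11 CPM in the CCR2low and 0, 0 and 0 in the CCR2hi libraries of WT, and at 1.55, 8.73 and 11.5 in the CCR2low and 15.5, 7.3 and 13.4 in the CCR2hi libraries of Bhlhe41Cre. It had no count in the 3 WT CCR2hi libraries, each of which would allow up to 3 counts, so no ratio to that group is given.

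Among the vanishing genes with the lower level in WT CCR2low was Nrg1 (chr8:31814551-32884029), the ErbB ligand neuregulin that acts on heart muscle, at 0.692, 2.41 and 1.48 CPM in the CCR2low and 7.59, 7.56 and 10.3 in the CCR2hi libraries of WT, and at 22.8, 12.2 and 15.9 in the CCR2low and 10.5, 9.4 and 12.5 in the CCR2hi libraries of Bhlhe41Cre. WT CCR2low was the lowest group without overlap, and Bhlhe41Cre CCR2hi overlapped both WT CCR2hi and Bhlhe41Cre CCR2low. The gate difference was -2.46 ± 0.35 in WT and 0.65 ± 0.30 in Bhlhe41Cre, and the interaction 3.12 ± 0.46 (edgeR adjusted p = 0.00183) became 2.60 after the length correction.

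Malat1 (chr19:5795690-5802672), a long nuclear RNA, was at 20.6, 27.1 and 45.2 CPM in the CCR2low and 141, 575 and 118 in the CCR2hi libraries of WT, and at 366, 307 and 80.0 in the CCR2low and 88.8, 101 and 59.6 in the CCR2hi libraries of Bhlhe41Cre. WT CCR2hi replicate 2 was far above the rest of its group, and Bhlhe41Cre CCR2low replicate 3 was below the CCR2hi replicates 1 and 2. The interaction was 4.76 ± 0.93 (edgeR adjusted p = 0.00896), and the gate difference in Bhlhe41Cre was 1.60 ± 0.64 (edgeR adjusted p = 0.0521). Slc5a3 (chr16:92058322-92087473), a transporter of the osmolyte myo-inositol, was at 0.959, 1.21 and 1.73 CPM in the CCR2low and 10.5, 12 and 9.17 in the CCR2hi libraries of WT, and at 13.2, 8.78 and 3.94 in the CCR2low and 7.48, 6.54 and 4.12 in the CCR2hi libraries of Bhlhe41Cre. It was lowest in WT CCR2low, as Nfat5 was, and had an interaction of 3.53 ± 0.54 (edgeR adjusted p = 0.00205).

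The genes Ash1l (a histone methyltransferase), Mga (a partner of MAX), Rev3l (the catalytic subunit of DNA polymerase zeta) and Usp34 (a deubiquitinase) and the gene 4932438A13Rik had interactions between 2.00 ± 0.42 and 2.31 ± 0.46. After the length correction these were 1.33, 0.95, 1.38, 1.13 and 1.07, in the order named. Hif1a (chr12:73901375-73947530), the oxygen-regulated transcription factor, was at 84.3, 69 and 74.6 CPM in the CCR2low and 180.4, 140.0 and 165 in the CCR2hi libraries of WT, and at 279.7, 282 and 172 in the CCR2low and 228, 210.1 and 149 in the CCR2hi libraries of Bhlhe41Cre. WT CCR2low was the only group apart from the others. Its interaction was 1.41 ± 0.29 (edgeR adjusted p = 0.00872), and 0.90 after the length correction.

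Of the 18 heat shock and chaperone genes, 6 were called higher in the interaction and 1 lower (Hmox1, named after its value was seen), beside 4.66% and 7.95% of all autosomal genes, and 5 of the 7 vanished. The median of the list was 0.14, and 1.56 relative to the macrophage identity genes, where the median gene was at 1.14. Dnajb4 (chr3:152178511-152210302), a co-chaperone of HSP70, was at 18.9, 21.4 and 23.1 CPM in the CCR2low and 97.3, 70.3 and 85.2 in the CCR2hi libraries of WT, and at 66.6, 70.0 and 42.4 in the CCR2low and 73, 84.1 and 50.7 in the CCR2hi libraries of Bhlhe41Cre. Hsp90b1 (chr10:86690209-86705509), the HSP90 of the endoplasmic reticulum, was at 286, 264 and 293 CPM in the CCR2low and 656, 441 and 607 in the CCR2hi libraries of WT, and at 697, 806 and 675 in the CCR2low and 664, 763 and 582 in the CCR2hi libraries of Bhlhe41Cre. For both, WT CCR2low was the lowest group and the Bhlhe41Cre gates overlapped. The interactions were 1.78 ± 0.30 (edgeR adjusted p = 0.0038) and 1.13 ± 0.23 (edgeR adjusted p = 0.00799).

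Appearing genes with a higher interaction had no called gate difference in WT and were higher in Bhlhe41Cre CCR2low than CCR2hi. A gate difference that was not called need not be small. Where it had to be under 1.5-fold, 360 of all 427 appearing and 521 of all 592 vanishing genes remained. Hyal1 (chr9:107576927-107581710), a lysosomal hyaluronidase, was at 7.72, 7.85 and 11.4 CPM in the CCR2low and 6.01, 11.9 and 7.18 in the CCR2hi libraries of WT, and at 33.8, 31.5 and 22.4 in the CCR2low and 5.9, 7.59 and 6.13 in the CCR2hi libraries of Bhlhe41Cre. Only the Bhlhe41Cre CCR2low libraries stood apart, and all 3 of them did. The gate difference was 0.11 ± 0.26 in WT and 2.16 ± 0.26 in Bhlhe41Cre, the interaction was 2.05 ± 0.36 (edgeR adjusted p = 0.00467), and the length correction left it at 2.29.

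Eea1 (chr10:95940650-96045518), a tether of early endosomes, was at 15.7, 16.6 and 19.5 CPM in the CCR2low and 24.6, 18.6 and 20.3 in the CCR2hi libraries of WT, and at 116, 118 and 58.6 in the CCR2low and 35.4, 38.2 and 23 in the CCR2hi libraries of Bhlhe41Cre. Kdm7a (chr6:39136623-39206789), a histone demethylase, was at 20.2, 23.9 and 32.9 CPM in the CCR2low and 28.8, 29 and 29.7 in the CCR2hi libraries of WT, and at 132, 127 and 70.7 in the CCR2low and 42.1, 42.5 and 30.2 in the CCR2hi libraries of Bhlhe41Cre. Bhlhe41Cre CCR2low was the highest group of both genes without overlap, with replicate 3 nearest to the rest. Their interactions were 1.89 ± 0.36 (edgeR adjusted p = 0.00626) and 1.70 ± 0.33 (edgeR adjusted p = 0.00717), and 1.10 and 0.74 after the length correction.

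Cep350 (a centrosome protein), Dmxl1 (a factor in the assembly of the vacuolar proton pump), Impact, Ercc6 (a DNA repair factor coupled to transcription) and Ago3 (an Argonaute protein) had interactions between 1.70 ± 0.28 and 1.96 ± 0.35. Of these, Ago3 and Dmxl1 came to 0.61 and 0.66 after the length correction. The WT gate differences of Cep350 and Ago3 were -0.56 ± 0.24 and -0.45 ± 0.20 (edgeR adjusted p = 0.0616 and 0.0638). The class was kept in 10 of the 26 alternatives for Ago3, 13 for Cep350 and 20 to 23 for Impact, Ercc6 and Dmxl1. Eno2 (chr6:124760053-124769673), a glycolytic enolase, was at 5.22, 5.18 and 6.48 CPM in the CCR2low and 5.52, 5.62 and 8.2 in the CCR2hi libraries of WT, and at 20.8, 14.2 and 8.88 in the CCR2low and 5.99, 5.49 and 4.49 in the CCR2hi libraries of Bhlhe41Cre. Bhlhe41Cre CCR2low was the highest group here too, and the interaction was 1.66 ± 0.39 (edgeR adjusted p = 0.0178).

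Appearing genes with a lower interaction formed 2 patterns that can be read from the groups. In the first, Bhlhe41Cre CCR2hi was the high group. S100a9 (chr3:90692632-90695721), which with S100a8 forms the neutrophil and monocyte protein calprotectin, was at 10.5, 29.8 and 38.5 CPM in the CCR2low and 28.2, 9.24 and 6.93 in the CCR2hi libraries of WT, and at 46.6, 64.5 and 57.1 in the CCR2low and 518, 371 and 413 in the CCR2hi libraries of Bhlhe41Cre. The 3 Bhlhe41Cre CCR2hi libraries lay more than 5-fold above all others. S100a9 differed between genotypes by 4.87 ± 0.56 in CCR2hi (edgeR adjusted p = 6.66e-05) and 1.09 ± 0.49 in CCR2low (edgeR adjusted p = 0.0879), with an interaction of -3.78 ± 0.70 (edgeR adjusted p = 0.00637). That of S100a8 was -3.76 ± 0.73 (edgeR adjusted p = 0.00844). With the macrophage identity genes as the scale the interactions were -2.17 and -2.15 (edgeR adjusted p = 0.0716 and 0.081).

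Ifitm1 (chr7:140967221-140969825), an interferon-induced membrane protein, was at 5.11, 12.6 and 9.28 CPM in the CCR2low and 6.75, 6.62 and 6.27 in the CCR2hi libraries of WT, and at 16.2, 13.2 and 13.2 in the CCR2low and 94.4, 53.7 and 78.5 in the CCR2hi libraries of Bhlhe41Cre. Hdc (chr2:126593667-126619299), which makes histamine, was at 7.19, 12.1 and 11 CPM in the CCR2low and 18.9, 10.3 and 9.83 in the CCR2hi libraries of WT, and at 13.6, 25 and 21.3 in the CCR2low and 103, 95.1 and 117 in the CCR2hi libraries of Bhlhe41Cre. In both, Bhlhe41Cre CCR2hi was the high group without overlap. The interactions were -2.87 ± 0.39 (edgeR adjusted p = 0.00107) and -2.03 ± 0.39 (edgeR adjusted p = 0.0067). That of Hdc relative to the macrophage identity genes was -0.53 (edgeR adjusted p = 0.469). Hdc was named from the list of 10 mast cell markers, of which 6 were tested and 2 called lower, both appearing. Over all autosomal genes 7.95% were called lower. The summed mast cell list took 0.00134% to 0.00201% of counts in the CCR2low and 0.00202% to 0.00312% in the CCR2hi libraries of WT, and 0.00215% to 0.00338% and 0.0125% to 0.0158% in those of Bhlhe41Cre. Hdc itself made up most of the sum in Bhlhe41Cre CCR2hi, so the sum is no separate measure beside Hdc. Fcer1a was at 0 in WT CCR2hi and Mrgprb1 and Ms4a2 in Bhlhe41Cre CCR2low, and the part of mast cell RNA was not tested.

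Of the 14 neutrophil markers, 10 were called lower and none higher, beside 7.95% and 4.66% of all autosomal genes. Of the 10, 5 appeared, 1 vanished, 2 turned, 1 narrowed and 1 widened. The list's median was -3.65, and -2.16 relative to the macrophage identity genes, against -0.18 and 1.14 for all autosomal genes, and 3 were called lower there (0.761% of all autosomal genes) and 8 relative to the fibroblast markers (2.08%). The summed neutrophil list took 0.0196% to 0.0282% of counts in the CCR2low and 0.00786% to 0.017% in the CCR2hi libraries of WT, and 0.0324% to 0.0344% and 0.10% to 0.16% in those of Bhlhe41Cre, with no marker at 0 in any group. S100a8 and S100a9 made up most of the sum in Bhlhe41Cre CCR2hi, so the sum there largely restates these genes. The part of neutrophil RNA in the changes of S100a8, S100a9, Csf3r, Fpr1 and Lcn2, which are in the list, and of Trem1 and Ifitm1, was not tested.

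In the second pattern, Bhlhe41Cre CCR2low was the low group. Tnnt2 (chr1:135836354-135852260), cardiac troponin T, was at 29.7, 24.9 and 20.6 CPM in the CCR2low and 31.4, 25.6 and 27.1 in the CCR2hi libraries of WT, and at 6.75, 6.82 and 8.23 in the CCR2low and 32.8, 31.4 and 35.8 in the CCR2hi libraries of Bhlhe41Cre. Mb (chr15:77015487-77050670), the oxygen store myoglobin, was at 46.7, 35.5 and 26.8 CPM in the CCR2low and 34.7, 47.5 and 58 in the CCR2hi libraries of WT, and at 5.14, 6.05 and 9.52 in the CCR2low and 44.6, 45.6 and 59.5 in the CCR2hi libraries of Bhlhe41Cre. Every Bhlhe41Cre CCR2low library lay below the 9 others for both genes, and the WT gates overlapped. The gate differences in Bhlhe41Cre were -2.20 ± 0.16 and -2.85 ± 0.28, and the interactions -2.04 ± 0.22 (edgeR adjusted p = 0.000361) and -2.49 ± 0.37 (edgeR adjusted p = 0.00183). That of Tnnt2 relative to the macrophage identity genes was -0.65 (edgeR adjusted p = 0.24).

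Of the 20 cardiomyocyte markers, 16 were called lower in the interaction and none higher, beside 7.95% and 4.66% of all autosomal genes. Of the 16, 13 appeared, 2 turned and 1 widened. The median of the list was -2.13, and -0.92 relative to the macrophage identity genes. On that scale 6 were called lower and 1 higher, beside 0.761% and 42.1% of all autosomal genes. Relative to the fibroblast markers 13 of the list were called lower, beside 2.08% of all autosomal genes. The summed cardiomyocyte list took 0.04% to 0.0453% of counts in the CCR2low and 0.0542% to 0.0558% in the CCR2hi libraries of WT, and 0.0314% to 0.0372% and 0.0547% to 0.0598% in those of Bhlhe41Cre, and no marker was at 0 in any group. Its part in these changes was not tested. Nppa (chr4:148000722-148002079), the atrial natriuretic peptide, was at 24.4, 13.3 and 4.79 CPM in the CCR2low and 5.47, 5.36 and 9.58 in the CCR2hi libraries of WT, and at 1.61, 1.09 and 3.0 in the CCR2low and 9.35, 7.83 and 10.8 in the CCR2hi libraries of Bhlhe41Cre. Unlike Tnnt2, its WT CCR2low libraries were spread from the lowest to the highest level outside Bhlhe41Cre CCR2low, and its interaction was -3.36 ± 0.69 (edgeR adjusted p = 0.00942).

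Smooth muscle genes were also low in that group. Myh11 (chr16:14194535-14291372), smooth muscle myosin, was at 25, 26.6 and 44.7 CPM in the CCR2low and 30.9, 39.3 and 38.8 in the CCR2hi libraries of WT, and at 8.51, 10.5 and 5.76 in the CCR2low and 68.7, 41.4 and 45 in the CCR2hi libraries of Bhlhe41Cre. It was lowest in all 3 Bhlhe41Cre CCR2low libraries, with an interaction of -2.47 ± 0.38 (edgeR adjusted p = 0.00222), and -1.21 relative to the macrophage identity genes (edgeR adjusted p = 0.0716). Lmod1, an actin nucleator of smooth muscle, had an interaction of -2.78 ± 0.58. Of the 12 mural markers 7 were called lower and none higher, beside 7.95% and 4.66% of all autosomal genes, and the median was -1.57. Of the 7, 6 had a wider gate difference, among them Acta2, Tagln and Des. Relative to the macrophage identity genes the list's median was -0.25 and none of the 12 was called, beside 42.1% of all autosomal genes called higher. Relative to the fibroblast markers 2 of the 12 were called lower, beside 2.08% of all autosomal genes. The summed share of the mural markers was 0.0587% to 0.0637% in WT CCR2low, 0.0152% to 0.0298% in Bhlhe41Cre CCR2low and 0.195% to 0.223% in the CCR2hi libraries of both genotypes, with no marker at 0, and its part was not tested.

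Cyp26b1 (chr6:84571414-84593908), which degrades retinoic acid, was at 8.84, 7.54 and 9.49 CPM in the CCR2low and 5.87, 7.56 and 4.84 in the CCR2hi libraries of WT, and at 0.75, 0.60 and 0.529 in the CCR2low and 13.6, 2.53 and 6.34 in the CCR2hi libraries of Bhlhe41Cre. Gm13889 (chr2:93955810-93957201) was at 26.3, 30.3 and 49.9 CPM in the CCR2low and 54.4, 41.3 and 37 in the CCR2hi libraries of WT, and at 9.05, 16.3 and 9.05 in the CCR2low and 123, 113 and 86.1 in the CCR2hi libraries of Bhlhe41Cre. Both were lowest in Bhlhe41Cre CCR2low, and Gm13889 was also highest in Bhlhe41Cre CCR2hi. Their interactions were -4.06 ± 0.67 (edgeR adjusted p = 0.00311) and -2.91 ± 0.39 (edgeR adjusted p = 0.00107), and that of Thrsp, a regulator of lipid synthesis, was -2.91 ± 0.62. On the macrophage identity scale that of Gm13889 was -1.50 (edgeR adjusted p = 0.0583).

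The early response genes gave a further form of appearance. Nr4a1 (chr15:101254269-101274795), an orphan nuclear receptor induced within minutes of stimulation, was at 888, 954 and 878 CPM in the CCR2low and 1042, 771 and 869 in the CCR2hi libraries of WT, and at 135, 163 and 233 in the CCR2low and 515, 475 and 601 in the CCR2hi libraries of Bhlhe41Cre. Btg2 (chr1:134075170-134079120), an antiproliferative gene, was at 413, 447 and 520.2 CPM in the CCR2low and 405, 595 and 734 in the CCR2hi libraries of WT, and at 55.2, 64.5 and 63.7 in the CCR2low and 225, 196 and 259 in the CCR2hi libraries of Bhlhe41Cre. Both were lower in Bhlhe41Cre than WT in either gate without overlap, and more so in CCR2low. For Nr4a1 the genotypes differed by -2.36 ± 0.20 in CCR2low and by -0.75 ± 0.19 in CCR2hi (edgeR adjusted p = 1.00e-05 and 0.00835), and for Btg2 by -2.91 ± 0.21 and -1.35 ± 0.19 (edgeR adjusted p = 2.84e-06 and 0.00023). Their interactions were -1.60 ± 0.27 (edgeR adjusted p = 0.00317) and -1.56 ± 0.27 (edgeR adjusted p = 0.00426), and relative to the macrophage identity genes they were -0.21 and -0.35, neither past the test. Of the 25 genes of this list 7 were called lower and none higher, beside 7.95% and 4.66% of all autosomal genes. Of the 7, 4 appeared, 2 vanished and 1 turned. Relative to the macrophage identity genes none of the 25 was called lower and 7 higher, a smaller share than the 42.1% of all autosomal genes called higher there.

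Innate sensing receptors were among the lists with the most calls. Of 25 autosomal genes tested, 15 were called lower and none higher, beside 7.95% and 4.66% of all autosomal genes. Of the 15, 5 vanished, 4 turned and 6 narrowed. The list's median was -0.97, and 0.35 relative to the macrophage identity genes, where 5 were called higher and 2 lower beside 42.1% and 0.761% of all autosomal genes. Clec7a (chr6:129461591-129472779), the beta-glucan receptor dectin-1, was at 174, 123 and 159 CPM in the CCR2low and 43.7, 33.1 and 61 in the CCR2hi libraries of WT, and at 159.6, 162 and 169 in the CCR2low and 112, 141 and 153 in the CCR2hi libraries of Bhlhe41Cre, with WT CCR2hi below all other libraries. Its interaction was -1.45 ± 0.28 (edgeR adjusted p = 0.00761), and -0.14 relative to the macrophage identity genes (edgeR adjusted p = 0.794). Clec4d (chr6:123262111-123275265), a receptor for mycobacterial glycolipid, narrowed from 3.54 ± 0.18 in WT to 0.81 ± 0.16 in Bhlhe41Cre. Its mean was 203 ± 18.4 CPM in the CCR2low and 17.4 ± 4.66 in the CCR2hi libraries of WT, and 477 ± 14.5 and 272 ± 30.6 in those of Bhlhe41Cre (SD, n = 3 in each group). The interaction of Clec4d was -1.29 on the macrophage identity scale (edgeR adjusted p = 0.059).

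Inflammatory cytokines and chemokines had 10 of 26 genes called lower and none higher, beside 7.95% and 4.66% of all autosomal genes. Of the 10, 7 narrowed, 2 vanished and 1 appeared. Tnf, Il1a and Osm narrowed, with gate differences of 3.29 ± 0.19, 3.05 ± 0.19 and 3.03 ± 0.21 in WT and 1.55 ± 0.18, 0.94 ± 0.18 and 0.99 ± 0.19 in Bhlhe41Cre. Relative to the macrophage identity genes, where the median of the list was 0.17, 3 of the 26 were called higher beside 42.1% of all autosomal genes, and Tnf, Il1a and Osm did not pass the test. Nfkbid (chr7:30421732-30428746), a nuclear inhibitor of NF-kB, vanished and was at 125, 136 and 115 CPM in the CCR2low and 12, 24.1 and 25.1 in the CCR2hi libraries of WT, and at 38.4, 34.7 and 51.9 in the CCR2low and 20.3, 21.5 and 40.0 in the CCR2hi libraries of Bhlhe41Cre. WT CCR2low was far above the other groups, and the Bhlhe41Cre gates overlapped. Its interaction was -2.01 ± 0.41 (edgeR adjusted p = 0.00896), and -0.80 relative to the macrophage identity genes (edgeR adjusted p = 0.087). In the list of NF-kB and its feedback inhibitors 5 of 20 genes were called lower on the main scale, beside 7.95% of all autosomal genes. The 5 were Nfkbia, Nfkbid, Nfkbiz, Irak3 and Icam1, of which the last 3 were named after their values were seen. Of the 5, 3 vanished. Relative to the macrophage identity genes 7 of the 20 were called higher and none lower, beside the 42.1% and 0.761% of all autosomal genes, and Nfkbia was at 0.39 (edgeR adjusted p = 0.458).

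Plaur (chr7:24462484-24475968), the urokinase receptor, vanished and was at 267, 283 and 289 CPM in the CCR2low and 139, 71.2 and 74.1 in the CCR2hi libraries of WT, and at 513, 499.8 and 592 in the CCR2low and 478, 483 and 497 in the CCR2hi libraries of Bhlhe41Cre. The Bhlhe41Cre gates lay close together without overlap, and both lay above WT. The interaction was -1.42 ± 0.29 (edgeR adjusted p = 0.00947), and 0.077 relative to the macrophage identity genes (edgeR adjusted p = 0.916). In the list of recruited monocyte genes 2 of 21 were called higher and 10 lower, beside 4.66% and 7.95% of all autosomal genes. Of the called genes 3 appeared, 3 vanished, 2 turned and 4 narrowed. The list's median was -1.27, and 0.33 relative to the macrophage identity genes. On that scale 5 of the 21 were called higher and 3 lower, beside 42.1% and 0.761% of all autosomal genes.

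None of the macrophage identity genes was a member, beside 1180 of the 14452 autosomal genes tested. That absence is not read as a result about the list, whose median gate difference was 2.93 in WT and 1.75 in Bhlhe41Cre. Of 20 macrophage identity genes 8 were called, all lower and all by narrowing, beside 7.95% of all autosomal genes called lower. Examples were Cd14 (from 2.75 ± 0.17 to 0.88 ± 0.16) and Tyrobp (from 3.25 ± 0.26 to 1.52 ± 0.25). The list's median was -1.0 on the main scale. Relative to the list itself the median was 0.10, and neither gene passed the test. Both genes are in the sum that sets that scale, so a median near 0 is built in and tells nothing further about them. The resident cardiac macrophage genes Lyve1, Fcna and Ltc4s narrowed too, with interactions of -3.39 ± 0.48, -3.29 ± 0.41 and -2.44 ± 0.39, which stayed called relative to the macrophage identity genes (-2.29, -2.16 and -1.30). Of the 22 resident cardiac macrophage genes 1 was called higher and 6 lower, and of the 23 lipid-associated macrophage genes, which include Gpnmb, none and 7. Over all autosomal genes 4.66% were called higher and 7.95% lower. Of the 18 fibroblast markers 1 was called lower and of 45 oxidative phosphorylation genes 1, beside the 7.95% of all autosomal genes called lower. Among 29 genes of the type I interferon response 2 were called higher (Ifih1 and Ifnb1) and 3 lower (Irf9, Gbp2 and Ifi47), beside 4.66% and 7.95% of all autosomal genes. The list's median was -0.07, against -0.18 for all autosomal genes. The called genes were named after their values were seen, and all but Ifi47 appeared. These few calls are not read as a result about the list.

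Bhlhe41 itself (chr6:145858243-145865558) was a member, at 41.2, 32.3 and 34.2 CPM in the CCR2low and 45.4, 39.7 and 27.1 in the CCR2hi libraries of WT, and at 23.9, 26 and 13.3 in the CCR2low and 7.67, 9.45 and 6.8 in the CCR2hi libraries of Bhlhe41Cre. The gates overlapped in WT and did not overlap in Bhlhe41Cre, where CCR2hi was the lower. It appeared, with an interaction of 1.46 ± 0.35 (edgeR adjusted p = 0.0186, called in 22 of 26 alternatives with adjusted p of 0.000984 to 0.104). Leaving out either replicate 2 of WT CCR2low or replicate 1 of Bhlhe41Cre CCR2low ended the call, as did limma-trend on TPM and the 1.5-fold minimum. Bhlhe40 (chr6:108660629-108666925) vanished, at 449, 409 and 403 CPM in the CCR2low and 888, 576 and 592 in the CCR2hi libraries of WT, and at 418, 470.5 and 449 in the CCR2low and 411, 406 and 473 in the CCR2hi libraries of Bhlhe41Cre. WT CCR2hi alone was higher, and its interaction was 0.76 ± 0.23 (edgeR adjusted p = 0.045, called in 16 of 26 alternatives with adjusted p of 0.00326 to 0.466). Leaving out any 1 of the WT CCR2low libraries, or replicate 1 or 2 of Bhlhe41Cre CCR2low, ended that call. Ccr2 (chr9:124101950-124113557) was not called in the interaction (1.05 ± 0.42, edgeR adjusted p = 0.118), with gate differences of -1.06 ± 0.30 in WT and -0.01 ± 0.30 in Bhlhe41Cre. It was called in 2 of 26 alternatives, which were the scale of the macrophage identity genes (2.25, edgeR adjusted p = 0.00497) and the fit without WT CCR2hi replicate 1 (edgeR adjusted p = 0.0275), and adjusted p ran from 0.00497 to 0.702.

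Of the 21 clock genes 7 were called, 4 higher and 3 lower, beside 4.66% and 7.95% of all autosomal genes. All 7 were members, as were 64.8% of all autosomal genes called, and so few genes are not read as particular to the clock. Besides Bhlhe41 and Bhlhe40, the higher ones were Clock and Rora, which vanished, and the lower ones were Per2, which turned, Tef, which vanished, and Csnk1e, which appeared (these 5 were named after their values were seen). Relative to the macrophage identity genes 7 of the 21 were called higher, a smaller share than the 42.1% of all autosomal genes, and none lower.

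The E-box CACGTG was sought in RefSeq promoters of GRCm38.p6 from 250 bases before to 50 after the start of each gene, and being its own reverse complement it reads alike on both strands. It stood in 8.11% of all 25748 autosomal genes with a promoter in the table, and in 11.4% of those that were tested. A promoter was matched for 891 of the 1180 members and for 10672 of the 14452 autosomal genes tested. Both lie under the 80% set as the minimum for comparing a property of gene sets, so no share among members is compared. The genes searched for display were 8 in every set, that is 8 each for turning, vanishing and appearing genes in either direction of the interaction. Among all the genes of these sets and Bhlhe41, the 5 below had the E-box before the start. Their number was not tested against the 11.4% of tested genes and is not read as an excess. They are shown because Bhlhe41 encodes a protein that binds this motif, in 60 bases each with the E-box in capitals, read along the gene's strand.
Prpf39, turned with a higher interaction, plus strand, chr12:65036264-65036323: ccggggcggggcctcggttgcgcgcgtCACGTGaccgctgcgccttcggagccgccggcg
Slpi, vanished with a lower interaction, minus strand, chr2:164356621-164356680: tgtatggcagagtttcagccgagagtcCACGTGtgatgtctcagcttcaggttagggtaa
Dusp2, vanished with a lower interaction, plus strand, chr2:127336023-127336082: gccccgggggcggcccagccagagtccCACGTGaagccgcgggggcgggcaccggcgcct
Ercc6, appeared with a higher interaction, plus strand, chr14:32513398-32513457: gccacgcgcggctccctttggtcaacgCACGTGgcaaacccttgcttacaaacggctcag
Bhlhe41, appeared with a higher interaction, minus strand, chr6:145865541-145865600: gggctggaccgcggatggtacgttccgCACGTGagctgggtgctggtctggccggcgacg
The E-box began 43 bases before the start in Prpf39, 146 in Slpi, 109 in Dusp2, 96 in Ercc6 and 153 in Bhlhe41. The start is that of RefSeq, and the windows of Slpi and Bhlhe41 lie wholly or partly within the longer span given for these genes above. A match is a description of these letters and not a binding site, and it occurred in genes with interactions of either sign.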

How the data were processed

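The submitters' processing notes name CASAVA 1.8, STAR 2.4.0j, RSEM and mm10. The authors deposited 1 table of expected counts, all of them whole numbers, and 1 of TPM. No source used here states the annotation or the strand setting. Column names have KD where the labels have Bhlhe41Cre, and gate and replicate number matched each to 1 sample. Several other label values of these samples stand under the wrong field, so their group was taken from the title alone. Gene positions, transcript lengths and GC content are from GENCODE mouse release M21 on GRCm38, in which 99.82% of identifiers were found.

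The 12 libraries were filtered with filterByExpr, scaled by TMM and fitted in R 4.3.3 with edgeR 4.0.16 (glmQLFit and glmQLFTest, robust, 1 mean per group, 8 residual degrees of freedom, common biological coefficient of variation 18.9%). Tests were two-sided, with Benjamini-Hochberg adjustment over all 14964 genes tested. CPM use TMM-scaled library sizes, and values after ± are standard errors of a log2 difference unless given as SD. Fitted values are relative to other genes within a library. The 26 alternatives used other filters, scalings, tools (DESeq2 1.42.0, limma 3.58.1 on counts and on log2(TPM + 1)), blocks and left-out libraries.

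The members and the 40 gene lists were chosen with earlier results of these data known. Genes were named by rule: among called autosomal genes with a mean of at least 5 CPM that stayed called without each library in turn, the 8 largest interactions per class and direction, and up to 3 per list by p, plus Bhlhe41, Bhlhe40 and Ccr2. Without molecular identifiers, reads are not independent molecules, so a limit from a count of 0 covers counting error only. A result for 1 of the genes chosen by this rule is not reported here.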

Additional observations from a re-analysis of the deposited data

Results flagged for a closer look

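The gate difference depended on the genotype for 1884 genes by the test of the interaction itself, and 161 autosomal genes turned, with called gate differences of opposite sign in WT and Bhlhe41Cre. Both counts depend on the scale, as described below.

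Xist, an X-linked transcript of female cells that no comparison used, was counted 1403 to 3699 times in each of the 6 Bhlhe41Cre libraries and at most 3 times in each WT library, although the labels call all mice male. Members were limited to autosomal genes, and 60 further genes called in the interaction lay on the X chromosome and none on Y.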

How the results depend on the processing

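The main counts were 1884 genes called in the interaction (710 higher, 1174 lower), with 427 appearing, 592 vanishing and 161 turning. DESeq2 called 1226 higher and 1349 lower. Another TMM reference gave 1252 higher and 686 lower with 270 turning, a filter at 5 CPM 1116 and 568, no filter 1150 and 691, library size scaling 447 and 1844, and the GC and length correction 451 higher. A minimum of 1.5-fold left 478 calls (132 higher, 346 lower), with 132 appearing, 184 vanishing and 17 turning. limma-trend on TPM called 1091 (377 higher, 714 lower), with 208, 349 and 72. Fibroblast scaling called 572 (270 higher, 302 lower), with 47, 103 and 5. Macrophage identity scaling called 6451 (6340 higher, 111 lower), with 42 appearing and 9 turning. Asking for a gate difference of 2-fold or more left 267 appearing, 346 vanishing and 33 turning. Leaving out each library in turn gave 871 to 2801 calls, 277 to 1738 higher, 409 to 1083 lower, 176 to 654 appearing, 255 to 899 vanishing and 67 to 442 turning. The fewest calls came without Bhlhe41Cre CCR2low replicate 1 and the most without replicate 3 of that group. Calls also moved beyond 1.5-fold without Bhlhe41Cre CCR2hi replicate 3 (927), WT CCR2low replicate 2 (953) and WT CCR2low replicate 1 (1138). Leaving out replicate 3 of both Bhlhe41Cre groups gave 245 turning genes. Macrophage identity scaling turned the interaction of Plaur to 0.077, Ier3 to 0.12, Sesn2 to 0.15, Gsr to 0.44 and Nfkbia to 0.39, and 42 of the named genes lost their call there, 20 under fibroblast scaling, 12 in limma-trend on TPM and 11 against the 1.5-fold minimum. The cause of these changes was not tested.

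Residuals of libraries with equal replicate numbers in the 2 gates correlated at -0.06, 0.03 and -0.05 in WT, so the numbers did not pair all groups. In Bhlhe41Cre the correlations were 0.23, 0.12 and 0.40, and both libraries of replicate 3 had the low Y-linked counts, although not every library correlated best with its own number. With a replicate block within genotype 870 genes were called higher and 1286 lower and 256 turned, and with a replicate block across groups 547 were called higher and 1026 lower. The block within genotype ended the call of none of the named genes, and the block across groups that of 1 (Bhlhe40).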
